A study of Homo sapiens with 12 samples.

Results

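The transcripts of 32 p53 target genes were followed in 4 human mammary epithelial lines. The members are a named list of genes whose transcription p53 is known to raise, matched by gene symbol to the Ensembl identifiers of the 61533 gene entries. All 32 were found, and 31 of them were among the 15616 genes with enough reads to test; the exception was TIGAR, with 0 counts in every library. Polyadenylated RNA was sequenced from HMLE cells, which derive from human mammary epithelium and carry telomerase and the SV40 early region, grown in DMEM:F12 medium. Each line had been transduced with a control construct, with CT83, with HORMAD1, or with both HORMAD1 and CT83 (here the double line), and all 4 lines, control included, were puromycin-selected for the construct and given no further treatment. HORMAD1 is a meiotic chromosome axis protein and CT83 is a cancer/testis antigen, both normally made in the germ line, and the series asks what each does in HMLE cells and whether they cooperate. There were 3 libraries per line and 12 in all, with 1 line per construct.

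p53 is a transcription factor that accumulates after DNA damage and other stress and binds DNA as a tetramer at pairs of a short decamer. Its targets stop the cell cycle, repair DNA, sensitise cells to death signals, adjust metabolism and feed back on p53 itself. In HMLE cells the large T antigen of SV40 binds p53 and interferes with its activity as a transcription factor, so these lines are a background in which the p53 response is known to be blunted. HORMAD1 has been studied for its part in the repair of DNA breaks, which is one of the inputs to p53.

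The libraries held 9898845 to 14159740 counts each. HORMAD1 had 0 counts in the control and CT83 lines, 290 ± 75.5 CPM (counts per 1000000 counts of the library, after TMM scaling; SD, n = 3) in the HORMAD1 line, and the double line had 314 ± 31.8 CPM. CT83 had 0 counts in the control and HORMAD1 lines, 523 ± 175 CPM in the CT83 line, and the double line had 102 ± 15.6 CPM. The 10 epithelial markers summed to between 9379 and 12031 CPM per library, and the 6 blood and endothelial markers to between 0.956 and 2.58 CPM. The 8 fibroblast and mesenchymal markers summed to 41.4 to 74.4 CPM in control, 29.1 to 45.1 CPM in the CT83 line, 26.9 to 47.6 CPM in the HORMAD1 line and 38.9 to 89.9 CPM in the double line. Of these 8 markers, 2 were at 0 throughout the CT83 line and 1 throughout the HORMAD1 line. The trend with exon length was taken on log2 CPM relative to each gene's mean over the 12 libraries. A rise or a fall is thus set against the average library. Control replicate 2, CT83 replicate 3 and HORMAD1 replicate 1 had the steepest rise. It was 0.021, 0.040 and 0.046 per doubling of length, against -0.034 to 0.004 in the other 9 libraries. Below they are called the libraries with the steepest length trend, counting rises only. The falls of double replicates 1 and 2 (-0.034 and -0.022) were larger in size than the rise of control replicate 2. Calls of members that differ without these 3 libraries are given both ways. The labels do not say that the 3 libraries of a line came from separate cultures, so the p-values measure only the spread between these libraries. With 1 line per construct, the transgene's effect and any other difference between lines cannot be told apart, nor can fewer expressing cells and less RNA per cell.

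None of the 31 tested p53 targets passed an adjusted p under 0.05 in any of 9 comparisons by edgeR's quasi-likelihood test: each transgenic line compared with control, the double line compared with either single line, each transgene across both backgrounds, their interaction, and any difference among the lines. The same count by limma-voom was 0 in each of the 9, while DESeq2 called 1 member, PLK2, in 3 of them. Few genes of any kind were called. The share of all tested genes that passed was 0.0064% for the CT83 line against control, 0.0064% for the HORMAD1 line against control, 0.0256% for the double line against control, 0.0064% for the double against the CT83 line and 0.0448% for the double against the HORMAD1 line. It was 0.032% for lines with CT83 against lines without, 0.0064% for lines with HORMAD1 against lines without, 0% for the interaction and 0.0448% for any difference. The members as a set lay close to their control level: their median log2 fold change was -0.02 in the CT83 line, 0.05 in the HORMAD1 line and 0.06 in the double line, beside medians over all tested genes of 0.01, 0.01 and 0. Above 0 were 15 members in the CT83 line, 21 in the HORMAD1 line and 22 in the double line. Averaged over members and set against the mean of the 12 libraries, the level was -0.04 ± 0.07 in control, -0.02 ± 0.07 in the CT83 line, 0.04 ± 0.07 in the HORMAD1 line and 0.02 ± 0.03 in the double line (log2 units, SD, n = 3). Libraries of 2 lines often separated without overlap, over all genes as over members. In the CT83 line 2 members lay wholly above control and 2 wholly below, beside 739 and 895 of 15616 genes. For the HORMAD1 line it was 1 and 1 beside 663 and 518, and for the double line 1 and 3 beside 1189 and 1223. The double line had 5 and 2 against the CT83 line (1383 and 1411 genes) and 2 and 3 against the HORMAD1 line (983 and 923).

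Windows of 250 bases before to 50 bases after the start of transcription were available from RefSeq (GRCh38.p14) for 24 of the 32 members, 33 windows in all. They were searched for the p53 decamer consensus, a motif of 10 bases with a C and a G in its core that reads the same on both strands. A decamer pair, at most 2 bases apart with at most 2 mismatches and both cores kept, was found for 3 of 24 members (12.5%), beside 259 of all 27305 genes with a window (0.949%). At least 1 perfect decamer was present for 6 of 24 members (25%), the same 3 among them, beside 2202 of all genes (8.06%). The matches of these 6 members are shown because the decamer is the sequence p53 is known to bind; capitals mark the decamers, and a match is no evidence of binding here. The first 3 hold decamer pairs: AEN at chr15:88621301-88621330 on the plus strand, DDB2 at chr11:47214975-47215003 on the plus strand and FAS at chr10:88991304-88991333 on the plus strand. The others hold a single decamer: FDXR at chr17:74872986-74873015, PLK2 at chr5:58460199-58460228 and SESN1 at chr6:109009018-109009047, all on the minus strand.
AEN: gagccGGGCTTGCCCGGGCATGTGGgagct
DDB2: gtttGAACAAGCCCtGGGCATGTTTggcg
FAS: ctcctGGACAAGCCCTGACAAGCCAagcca
FDXR: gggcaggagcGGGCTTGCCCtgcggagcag
PLK2: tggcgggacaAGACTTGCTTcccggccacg
SESN1: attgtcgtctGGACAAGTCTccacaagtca
The DDB2 pair had 0 mismatches with 1 base between the decamers, and the AEN and FAS pairs had 2 mismatches each with 0 bases between them. No match was found in the window of CDKN1A, which says only that these letters are not in that window.

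The members spanned a wide range of levels. To allow for gene length, levels were taken per kilobase of merged exons, the joined exons of all annotated transcripts of a gene. The transcripts expressed can be shorter, so the order of genes holds for this measure only. SFN stood far above the rest at 843 CPM per kilobase over the 12 libraries (range 663 to 931). SFN encodes 14-3-3 sigma, an epithelial protein that holds cells at the G2 checkpoint. GADD45A, a stress sensor, followed at 77.3 CPM per kilobase, then CDKN1A, the gene of the cyclin-dependent kinase inhibitor p21, at 56.7, PLK2 at 41.0, CCNG1 at 33.7, TRIAP1 at 30.6 and PHLDA3 at 23.2. The ranges of GADD45A (61.5 to 87.9) and CDKN1A (50.9 to 63.3) overlapped, as did those of PLK2 (33.3 to 50.5) and CCNG1 (27.6 to 36.2), of CCNG1 and TRIAP1 (25.8 to 34.1), and of TRIAP1 and PHLDA3 (20.3 to 26.8). CDKN1A lay above PLK2 in every library by this measure, with no overlap of their ranges. A middle group from AEN down to TNFRSF10B (9.62 to 8.62 CPM per kilobase) could not be ordered, since the libraries of its 5 members overlapped. The lowest were TRIM22 at 0.779, SPATA18 at 0.660, EDA2R at 0.335 and TP53INP1 at 0.298 CPM per kilobase. For scale, a floor of 3 counts corresponds to 0.202 to 0.302 CPM per library, and EDA2R in control replicate 2 was at 0.437 CPM, so the lowest members rest on few reads.

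**Figure D1:**
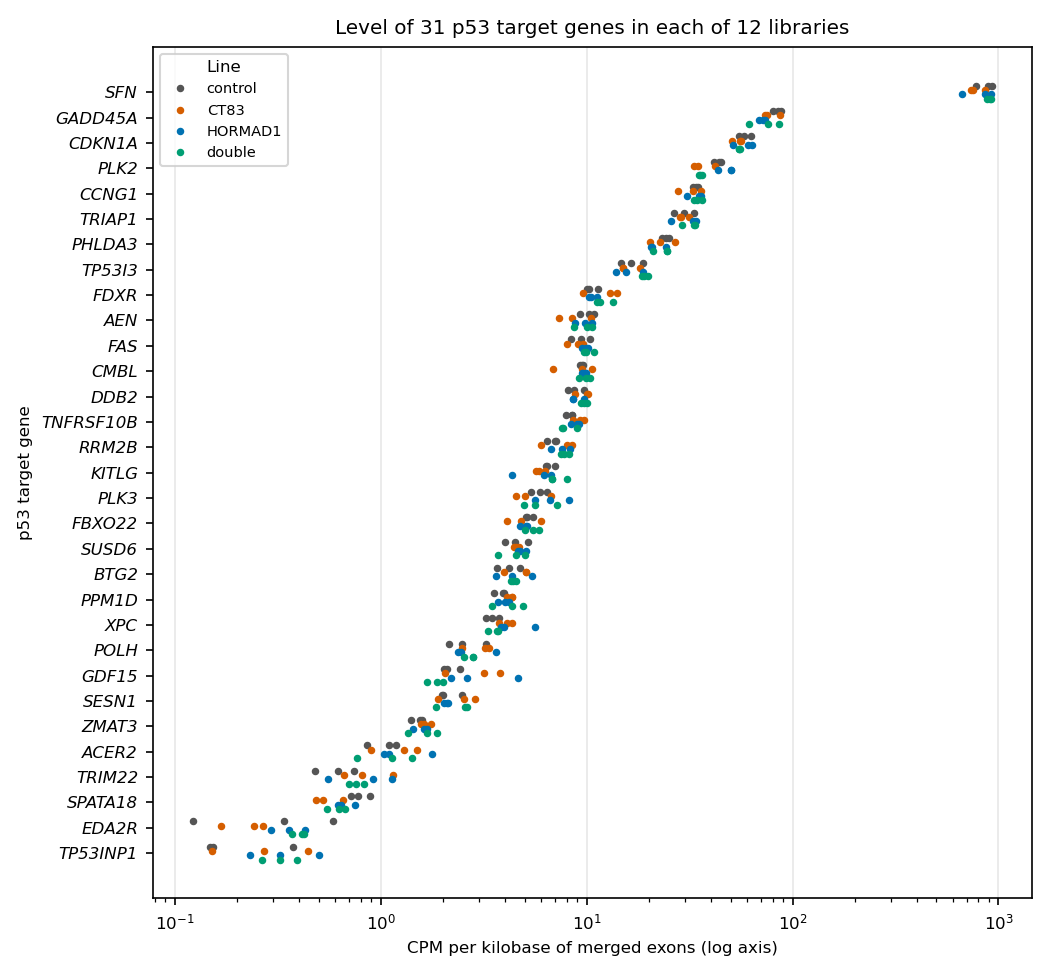
Level of each of the 31 tested p53 target genes in CPM per kilobase of merged exons (log axis), 1 point per library, coloured by line and ordered by the mean over the 12 libraries. SFN lies above 663 CPM per kilobase in every library, more than any library of any other member, and for most members the points of the 4 lines lie over each other.

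Among the 9 genes that halt the cycle or signal growth, CDKN1A is the best known p53 target. It had 177, 168 and 192 CPM in control, 169.7, 155 and 171 CPM with CT83, 157, 185 and 193 CPM with HORMAD1 and 168, 169.5 and 169 CPM with both. The 4 lines overlapped. Against control the log2 fold change was -0.11 (95% interval -0.3 to 0.07) in the CT83 line, -0.01 (-0.19 to 0.18) in the HORMAD1 line and -0.09 (-0.27 to 0.1) in the double line, with edgeR adjusted p of 0.984, 1 and 0.913. The widest of these intervals reach no further than 0.3 on the log2 scale. They are not adjusted for the number of genes and cover only the spread between these libraries. They therefore do not exclude a larger difference of CDKN1A between lines. In the CT83 line its log2 fold change was between -0.19 and -0.06 under the 22 alternatives. The near-zero difference in the HORMAD1 line had no stable sign: it was 0.08 without HORMAD1 replicate 1.

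SFN had 1178, 1032 and 1229 CPM in control, 976, 991 and 1132 CPM with CT83, 876, 1140.5 and 1217 CPM with HORMAD1 and 1202, 1215 and 1162 CPM with both. The highest CT83 library lay among the control libraries. GADD45A, which binds cell cycle and repair proteins, had 166, 182 and 176 CPM in control, 152, 156 and 179 CPM with CT83, 152, 142 and 149 CPM with HORMAD1 and 158, 178 and 127 CPM with both. All HORMAD1 libraries lay below all control libraries, with a log2 fold change of -0.24 ± 0.11 (SE) and an edgeR adjusted p of 1; the double line overlapped both. Over both backgrounds, GADD45A in lines with HORMAD1 differed from lines without by -0.16 ± 0.07 (SE, adjusted p = 0.899), and by -0.1 when double replicate 3 was left out. CCNG1, a cyclin that recruits a phosphatase to p53 regulators, had line means between 99.6 ± 13.2 CPM (CT83) and 107 ± 4.59 CPM (double; SD, n = 3). BTG2, an antiproliferative gene, ranged from 11.6 ± 1.45 CPM in control to 13.0 ± 1.75 CPM in the CT83 line, and the stress kinase gene PLK3 from 18.9 ± 4.03 CPM in the CT83 line to 23.7 ± 4.51 CPM in the HORMAD1 line. Libraries of the lines overlapped for all 3 genes.

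**Figure D2:**
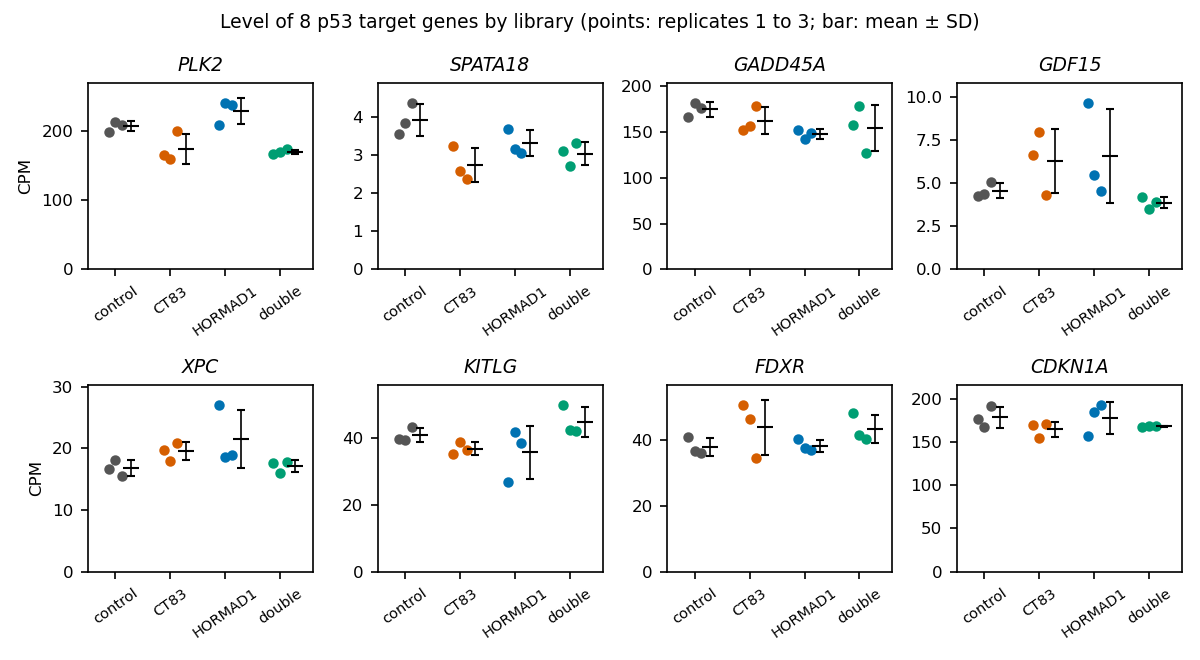
CPM of 8 p53 target genes in each library (points, replicates 1 to 3 from left to right) with the mean and SD of each line (bar), on axes that start at 0. PLK2 libraries of the CT83 and double lines lie at 159 to 199.6 CPM and those of the control and HORMAD1 lines at 199 to 241 CPM, while CDKN1A libraries of the 4 lines overlap between 155 and 193 CPM.

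PLK2 gave the smallest p of all members in 5 of the 9 comparisons. It encodes a polo-like kinase that acts in centriole duplication and in the response to stress, and lies on the minus strand of chromosome 5 at 58453982 to 58460260 (GRCh38, GENCODE 29). It had 199, 213 and 209.6 CPM in control and 208, 241 and 238 CPM in the HORMAD1 line, against 165, 159 and 199.6 CPM with CT83 alone and 168, 169 and 174 CPM with both transgenes. Of the 6 libraries with CT83, 5 lay below all 6 libraries without it; the exception, CT83 replicate 3, overlapped only the lowest control library. The means were 172 ± 14.16 CPM with CT83 and 218 ± 17.3 CPM without (SD over 6 libraries). Each set of 6 pools the libraries of its lines, CT83 and double or control and HORMAD1, which are not independent samples of a construct. The log2 difference was -0.34 ± 0.06 (SE; 95% interval -0.47 to -0.2), a 1.26-fold lower level, with an edgeR adjusted p of 0.133. PLK2 was lower in the CT83 line than in control by a log2 fold change of -0.25 ± 0.09 (adjusted p = 0.984), and in the double line than in control by -0.28 ± 0.09 (adjusted p = 0.764). Against the HORMAD1 line the double line was at -0.43 ± 0.09 (adjusted p = 0.157). The double and CT83 lines differed by -0.04 (95% interval -0.23 to 0.16), and the interaction was -0.18 (-0.45 to 0.09). The CT83 and double lines, which had 523 and 102 CPM of CT83 RNA, had PLK2 means of 175 ± 21.8 and 170.2 ± 3.14 CPM (SD, n = 3).

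Whether PLK2 passed the threshold depended on the processing, while the size of its difference changed little. For lines with CT83 against lines without, the log2 difference was between -0.41 and -0.31 under all 21 alternatives. The adjusted p was under 0.05 with no low-count filter (0.00255; 0.213% of all genes called), with DESeq2 (0.00695; 0.218%), without CT83 replicate 3 (0.0182; 0.12%), without HORMAD1 replicate 1 (0.00783; 0.612%) and without all 3 libraries with the steepest length trend (7.46e-06; 4.86%). It was 0.0796 with library size alone and 0.198 by limma-voom, and between 0.259 and 0.535 when any of the other 10 libraries was left out. In the double line against the HORMAD1 line, PLK2 was the 1 member called by the same alternatives: with no low-count filter (0.351% of all genes called), with DESeq2 (0.365%), without CT83 replicate 3 (0.0882%), without HORMAD1 replicate 1 (0.246%) and without the 3 libraries (2.16%). For any difference among the lines, PLK2 was called with no low-count filter (0.209% of all genes), with DESeq2 (0.134%) and without HORMAD1 replicate 1 (0.145%). Within lines, the correlation of PLK2 with the length trend was 0.11 over the 12 libraries. This value holds opposite moves: CT83 replicate 3 was the highest of its line (199.6 CPM) and HORMAD1 replicate 1 the lowest of its line (208 CPM). The bearing of the trend on the calls was not tested.

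**Figure D3:**
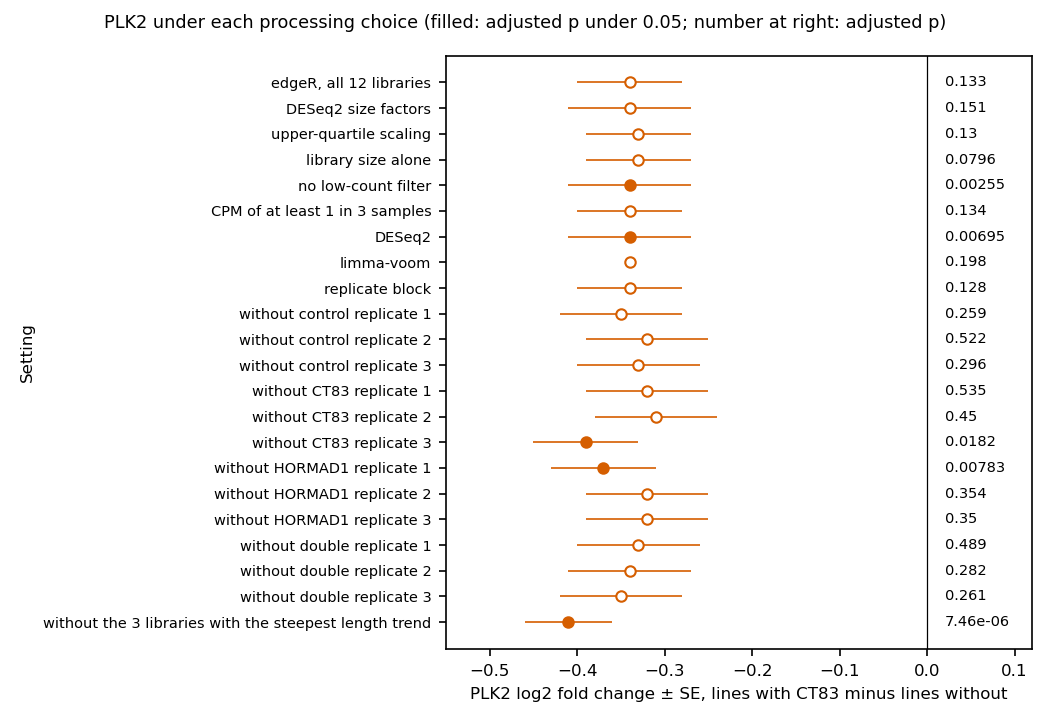
PLK2 log2 fold change between lines with and without CT83 (horizontal axis, point and SE; limma-voom has no SE drawn) under the main setting and each of 21 alternatives, with the adjusted p at the right. Filled points, adjusted p under 0.05, are 5 of the alternatives, and every point lies between -0.41 and -0.31.

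Without control replicate 2, CT83 replicate 3 and HORMAD1 replicate 1, further members were called, and so were many more genes of all kinds. No double library was left out. The libraries left out held the lowest SFN of control (1032 CPM) and the highest SFN of the CT83 line (1132 CPM). CT83 replicate 3 also held the highest PLK2 (199.6 CPM) and the lowest FDXR (34.5 CPM) of its line. In the CT83 line against control, where 0.76% of all genes were then called, PLK2 fell by 0.33 ± 0.07 (log2, SE; edgeR adjusted p = 0.0304) and SFN fell by 0.29 ± 0.06 (adjusted p = 0.0304). In the double against the CT83 line, with 0.466% of all genes called, SFN was higher by 0.28 ± 0.06 (adjusted p = 0.0281) and GDF15 fell by 0.91 ± 0.21 (adjusted p = 0.0493). With CT83 against without, where 4.86% of all genes were called, the 3 members called (9.68% of 31) were PLK2, CDKN1A and FDXR: CDKN1A fell by 0.18 ± 0.05 (adjusted p = 0.0346) and FDXR rose by 0.28 ± 0.07 (adjusted p = 0.0317). For any difference among the lines, with 3.82% of all genes called, SFN (adjusted p = 0.0128) and PLK2 (2.83e-05) passed. SFN is named here after its values were seen. Against the control line, the HORMAD1 and double lines had 0 members called in this setting too.

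The secreted members were GDF15, a stress cytokine of the TGF-beta family, and KITLG, the ligand of the receptor KIT. GDF15 (chromosome 19, 18374731 to 18389176, plus strand) had 4.25, 4.37 and 5.06 CPM in control, 6.60, 7.95 and 4.30 CPM with CT83, 9.64, 5.50 and 4.56 CPM with HORMAD1 and 4.17, 3.51 and 3.93 CPM with both. All double libraries lay below all other libraries, and each single line held 2 libraries above all control libraries. The gap to control was narrow, with the highest double library at 4.17 CPM and the lowest control library at 4.25 CPM. Against control the double line was at -0.24 ± 0.29 (log2, SE, edgeR adjusted p = 0.925). Of the 15616 tested genes, 1223 had all double libraries below all control libraries. The interaction on the log2 scale was -1.25 ± 0.39 (SE; 95% interval -2.08 to -0.42), with an edgeR adjusted p of 0.841. The double line was at -0.7 ± 0.28 against the CT83 line (adjusted p = 0.585) and at -0.78 ± 0.28 against the HORMAD1 line (adjusted p = 0.499). The HORMAD1 line was at 0.54 ± 0.27 against control (adjusted p = 1). These GDF15 values rest in part on HORMAD1 replicate 1, the library at 9.64 CPM: without it the interaction was -0.86 and the double line was at -0.38 against the HORMAD1 line. Without all 3 libraries of the steepest length trend, the HORMAD1 line was at 0.11 against control.

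KITLG (chromosome 12, 88492793 to 88580851, minus strand) had 39.9, 39.4 and 43.5 CPM in control, 35.2, 39.0 and 36.4 CPM with CT83, 26.9, 41.8 and 38.4 CPM with HORMAD1 and 49.9, 42.4 and 42.1 CPM with both. The double libraries lay above all CT83 and HORMAD1 libraries and overlapped control. KITLG had an interaction of 0.48 ± 0.19 (SE; 95% interval 0.07 to 0.89; edgeR adjusted p = 0.841), opposite in sign to that of GDF15, and the double line was at 0.33 ± 0.14 against the HORMAD1 line (adjusted p = 0.59). Here too HORMAD1 replicate 1, at 26.9 CPM, was the library farthest from its line, and without it these values were 0.3 and 0.15.

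By role, the median log2 fold change against control of the 9 arrest and growth members was -0.11 in the CT83 line (2 above 0), 0 in the HORMAD1 line (5 above 0) and 0 in the double line (5 above 0). For the 11 death and survival members it was -0.05 (4 above 0), 0.05 (7 above 0) and 0.1 (7 above 0) in the same order. For the 3 tested metabolism members it was 0.18, 0.01 and 0.12, and for the 4 feedback and other members 0.08, 0.07 and 0.11. The 4 members that act in DNA repair or supply nucleotides for it had positive log2 fold changes against control in each line with a transgene, with medians of 0.16 in the CT83 line, 0.12 in the HORMAD1 line and 0.09 in the double line, and none passed the test. The 3 comparisons share the control libraries, and the signs were the same under the other 3 scalings, which use the same libraries. In the double line XPC, at 0.03 ± 0.15 (SE), and POLH, at 0.05 ± 0.2, lay within their SE of 0. In the HORMAD1 line, DDB2 at 0.02 ± 0.1 (SE) and POLH at 0.11 ± 0.2 overlapped control. All 4 members were highest in replicate 1 of that line. The HORMAD1 libraries had 47.5, 42.1 and 42.2 CPM of DDB2 and 12.8, 8.68 and 8.43 CPM of POLH. Whether the signs hold without that replicate was not tested. XPC, which recognises helix-distorting damage, had 16.7, 18.1 and 15.5 CPM in control, 19.7, 18.0 and 20.8 CPM with CT83, 27.0, 18.5 and 19.0 CPM with HORMAD1 and 17.7, 16.0 and 17.7 CPM with both. The HORMAD1 libraries lay above all control libraries, with a log2 fold change of 0.36 ± 0.15 (SE; 95% interval 0.05 to 0.67; edgeR adjusted p = 1), and the interaction was -0.55 ± 0.21 (adjusted p = 0.841). Without HORMAD1 replicate 1, at 27.0 CPM, these were 0.17 and -0.36. XPC lies on the minus strand of chromosome 3 (14145147 to 14178783), and 318 bases of its exons lie opposite exons of LSM3, which had 5.30 times its counts. Another opposite gene, AC093495.1, covers 23.8% of its exons. Without knowledge of strand in the counting, reads from these pairs cannot be told apart. DDB2, which binds ultraviolet damage ahead of XPC and has the perfect pair of decamers, had 43.4 ± 3.80 CPM in control, 47.3 ± 3.59 CPM with CT83, 43.9 ± 3.06 CPM with HORMAD1 and 47.5 ± 1.59 CPM with both (SD, n = 3). POLH, the translesion polymerase eta, had line means from 9.31 ± 2.03 to 10.7 ± 1.67 CPM. RRM2B, the p53-inducible ribonucleotide reductase subunit, had 38.2 ± 2.10 CPM in control and 43.3 ± 1.90 CPM in the double line, with control libraries at 35.8 to 39.6 CPM and double libraries at 41.6 to 45.3 CPM. The double line was at a log2 fold change of 0.18 ± 0.12 against control (SE, edgeR adjusted p = 0.905). The CT83 libraries, at 47.0, 44.5 and 33.4 CPM, and the HORMAD1 libraries, at 45.9, 42.1 and 37.2 CPM, overlapped both.

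Of the 11 members of death and survival pathways, 3 are cell surface receptors. FAS, the receptor that starts apoptosis on binding its ligand and one of the 3 genes with a decamer pair, had 44.2, 35.6 and 39.9 CPM in control, 40.6, 38.7 and 34.2 CPM with CT83, 40.3, 43.2 and 42.3 CPM with HORMAD1 and 46.1, 42.3 and 41.5 CPM with both. In lines with HORMAD1 against lines without, the log2 difference of FAS was 0.13 ± 0.07 (SE; edgeR adjusted p = 0.899), with overlapping libraries. TNFRSF10B, a TRAIL receptor, had 42.8 ± 1.74 CPM in control, 47.6 ± 2.93 CPM with CT83, 45.7 ± 2.10 CPM with HORMAD1 and 41.7 ± 4.09 CPM with both. Its CT83 libraries (44.4 to 50.2 CPM) lay above its control libraries (40.8 to 43.9 CPM), as for 739 of 15616 genes. The log2 fold change was 0.15 ± 0.09 (SE, edgeR adjusted p = 0.984). EDA2R, a receptor of the same family, was near the limit of measurement, with 1.21, 0.437 and 2.11 CPM in control, 0.600, 0.864 and 0.956 CPM with CT83, 1.28, 1.54 and 1.05 CPM with HORMAD1 and 1.33, 1.49 and 1.51 CPM with both. The control libraries of EDA2R spanned the values of all other lines.

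SPATA18, which takes part in the quality control of mitochondria, had 3.56, 3.85 and 4.38 CPM in control, 3.26, 2.59 and 2.39 CPM with CT83, 3.71, 3.18 and 3.07 CPM with HORMAD1 and 3.11, 2.72 and 3.32 CPM with both. All CT83 and all double libraries lay below all control libraries, as they did for 895 and 1223 of the 15616 tested genes, each line taken alone. The log2 fold change against control was -0.51 ± 0.21 (SE; 95% interval -0.96 to -0.06) in the CT83 line and -0.37 ± 0.21 in the double line, and -0.32 ± 0.15 for lines with CT83 against lines without, with edgeR adjusted p of 0.984, 0.9 and 0.8. TP53I3, a quinone oxidoreductase tied to oxidative stress, had 34.0, 37.9 and 43.3 CPM in control, 34.6, 34.9 and 41.9 CPM with CT83, 31.96, 43.2 and 36.0 CPM with HORMAD1 and 45.9, 43.1 and 44.1 CPM with both. The double libraries lay above the CT83 libraries, with a log2 fold change of 0.26 ± 0.12 (adjusted p = 0.585), and overlapped the other lines. AEN, an apoptosis-enhancing nuclease with a decamer pair, had line means from 52.9 ± 9.77 CPM (CT83) to 61.2 ± 4.82 CPM (control), and the survival gene TRIAP1 from 42.6 ± 2.48 CPM (CT83) to 46.2 ± 3.63 CPM (double; SD, n = 3). PHLDA3, a repressor of AKT, had means of 68.5 ± 6.4 to 76.2 ± 3.19 CPM, and ZMAT3, an RNA-binding protein gene, of 14.7 ± 0.969 to 15.9 ± 0.850 CPM. ACER2, an alkaline ceramidase, stayed between 2.34 ± 0.376 and 2.92 ± 0.922 CPM, and TP53INP1, an autophagy regulator, between 1.28 ± 0.730 and 1.99 ± 0.771 CPM.

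TIGAR, a fructose bisphosphatase that lowers glycolytic flux, was listed at 0 counts in each of the 12 libraries. Exons of AC008012.1 on the same strand, also at 0, cover 42.6% of its exons. A count of 0 limits the reads assigned to TIGAR, not its expression. FDXR, the mitochondrial ferredoxin reductase, had 41.0, 36.9 and 36.1 CPM in control, 50.7, 46.6 and 34.5 CPM with CT83, 40.5, 37.6 and 37.0 CPM with HORMAD1 and 48.4, 41.7 and 40.6 CPM with both. The log2 difference of lines with CT83 from lines without was 0.2 ± 0.09 (SE; edgeR adjusted p = 0.785), and the CT83 line held both the highest and the lowest of the 12 libraries. SESN1, a sestrin that restrains growth signalling, had line means from 10.7 ± 0.252 to 12.5 ± 2.53 CPM, and CMBL, a hydrolase gene, from 29.9 ± 6.29 to 32.7 ± 2.11 CPM (SD, n = 3).

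Of the members with feedback or other roles, PPM1D encodes the phosphatase that shuts down the damage response. It had 19.2 ± 1.15 CPM in control, 21.5 ± 0.687 CPM with CT83, 20.02 ± 1.18 CPM with HORMAD1 and 21.4 ± 3.69 CPM with both (SD, n = 3). Its CT83 libraries (20.7 to 22.0 CPM) lay above its control libraries (17.9 to 19.9 CPM), and the other lines overlapped both. The log2 fold change of PPM1D in the CT83 line against control was 0.16 ± 0.13 (SE, edgeR adjusted p = 0.984). FBXO22, a ubiquitin ligase subunit, had means of 58.8 ± 11.4 to 64.7 ± 4.95 CPM, and SUSD6, a membrane protein gene, of 25.8 ± 3.86 to 28.2 ± 1.39 CPM. TRIM22, an interferon-inducible antiviral gene, had 3.72, 2.88 and 4.47 CPM in control, 4.89, 6.92 and 4.02 CPM with CT83, 6.81, 5.50 and 3.33 CPM with HORMAD1 and 4.97, 4.56 and 4.23 CPM with both. In the CT83 line TRIM22 was at a log2 fold change of 0.52 ± 0.27 (SE) against control, with overlapping libraries and an edgeR adjusted p of 0.984.

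At the looser threshold of an unadjusted p under 0.05, the members were set against all genes; with 31 members, each 1 is 3.23%. The share was 2 of 31 members (6.45%) beside 2.74% of all genes for the CT83 line against control, 2 of 31 beside 1.82% for the HORMAD1 line and 1 of 31 (3.23%) beside 5.56% for the double line. It was 1 of 31 beside 8.05% for the double against the CT83 line and 4 of 31 (12.9%) beside 7.59% for the double against the HORMAD1 line. It was 3 of 31 (9.68%) beside 6.21% for CT83 across backgrounds, 0 of 31 beside 3.73% for HORMAD1, 4 of 31 beside 4.5% for the interaction and 2 of 31 beside 4.83% for any difference. The 4 members of the interaction were GDF15, XPC, KITLG and TNFRSF10B, with KITLG above 0 and the others below. Medians of the members were 0.01 for the double against the CT83 line, 0.02 against the HORMAD1 line and -0.01 for the interaction. Some small medians changed sign with the scaling. With library size alone the median was 0.01 for the CT83 line against control and -0.03 for the double against the CT83 line. The median of all tested genes moved with it, from 0.01 to 0.03 and from 0 to -0.03. For the interaction, 14 members were above 0 and 17 below in the main setting. With upper-quartile scaling it was 16 and 15, and the median rounded to 0.

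**Figure D4:**
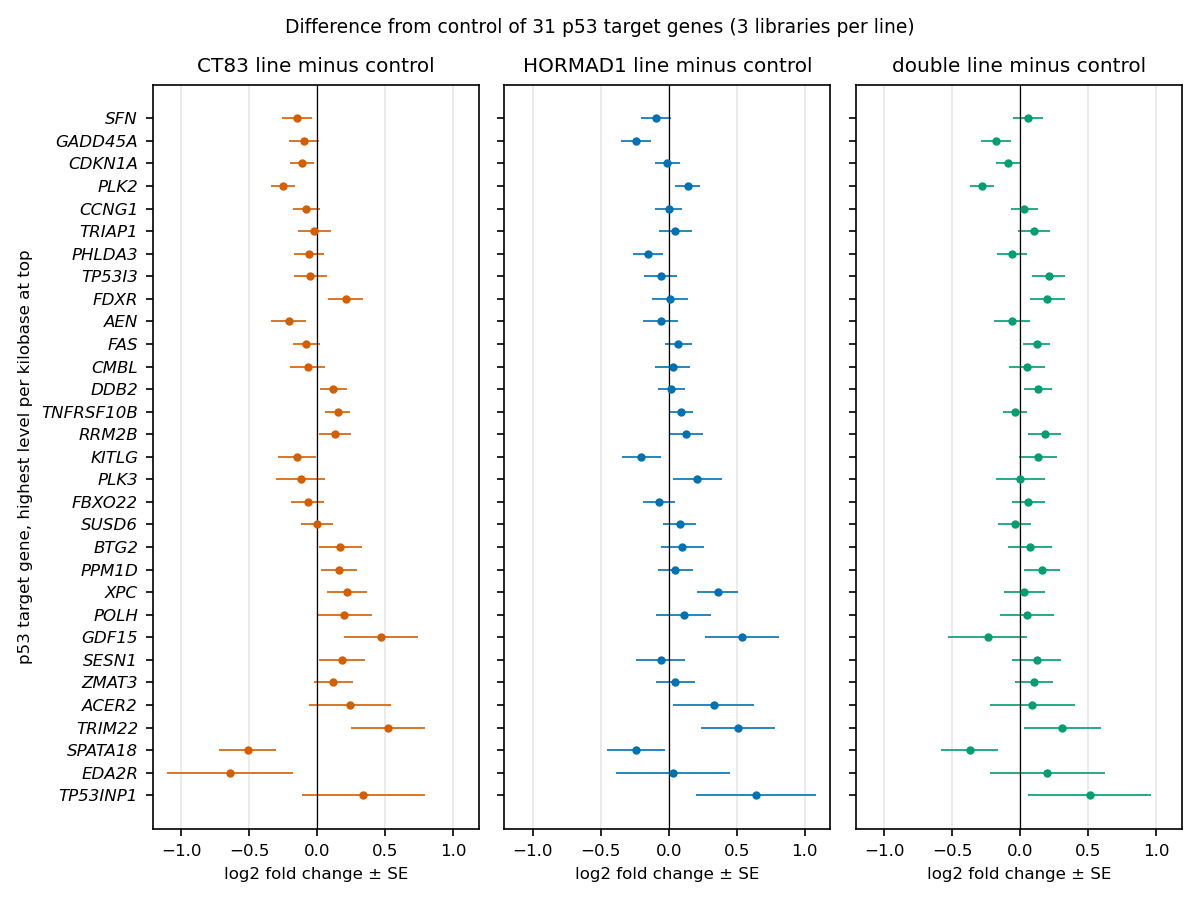
Log2 fold change against control (horizontal axis, point ± SE) of the 31 tested members in the CT83, HORMAD1 and double lines, with 3 libraries per line and the members ordered by level. Most points lie within 0.25 of 0 and the widest errors belong to the low-level genes EDA2R and TP53INP1.

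The members did not move as a block across the 12 libraries. With line means removed, the median correlation over 465 pairs of members was 0.02, and 236 pairs (50.8%) were above 0; points of a pair share library and depth, and no test was made. The highest were SFN with CDKN1A (0.9), CCNG1 with FBXO22 (0.9), TP53INP1 with DDB2 (0.89) and RRM2B with FDXR (0.88). The lowest were PHLDA3 with CCNG1 (-0.92), PHLDA3 with FBXO22 (-0.9), PLK2 with RRM2B (-0.88) and CDKN1A with POLH (-0.88). The length trend of the library moved with several of these genes. Its correlation over the 12 libraries, within lines, was 0.85 for PHLDA3, 0.8 for XPC, 0.8 for POLH and 0.7 for PLK3, and -0.9 for CCNG1, -0.76 for FBXO22, -0.74 for FAS, -0.73 for TRIAP1, -0.72 for KITLG and -0.62 for CDKN1A. Its part in the results was not tested. The median size of this correlation was 0.36 for members and 0.52 for all other tested genes, whose median exon lengths were 4253 and 4304 bases.

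The median SD between replicates of a line was 0.16 (log2 CPM) for members and 0.19 for all other tested genes. The median SD between the 4 line means was 0.1 for both; a mean of 3 libraries varies less than a single library, so these SDs are not on the same footing. CDKN1A and TNFRSF10B were among the steadiest members, with replicate SDs of 0.1 and 0.09, and TP53INP1 (0.56) and EDA2R (0.52) the least steady. PLK2 had an SD of 0.2 between line means and 0.11 between replicates, and GDF15 had 0.33 between line means and 0.36 between replicates.

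**Figure D5:**
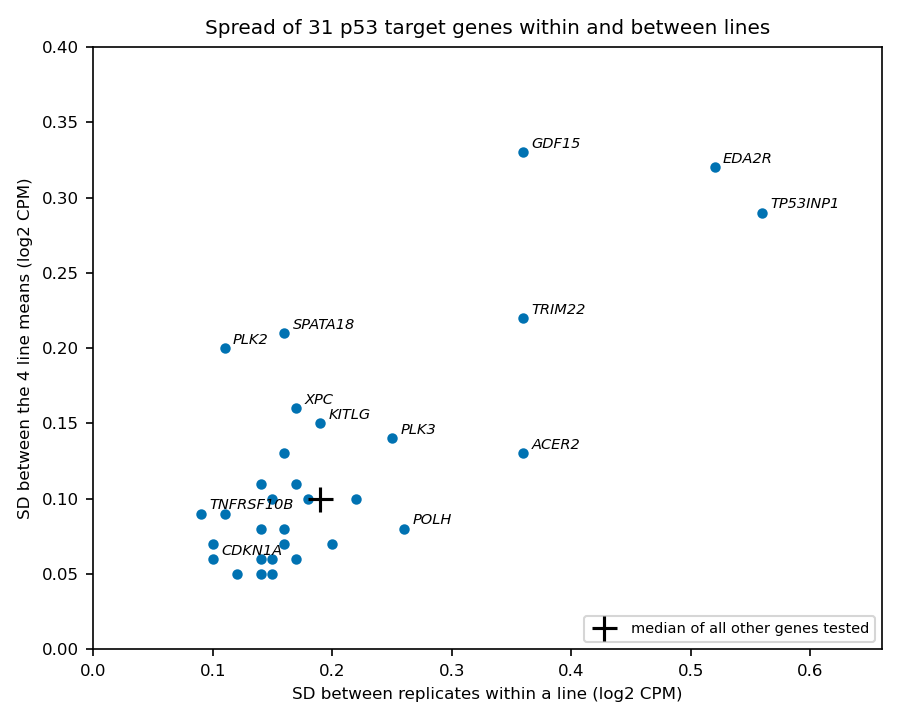
SD between replicates within a line (horizontal axis) against SD between the 4 line means (vertical axis), both in log2 CPM, 1 point per tested member, with a cross for the median of all other tested genes (0.19 and 0.1). PLK2 lies at 0.11 and 0.2, and EDA2R and TP53INP1 lie far to the right, above 0.5 between replicates.

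The rest of the pathway was read from 3 other lists, in which edgeR called 0 genes in each of the 9 comparisons. Of 43 further p53 targets, 41 were tested, with median log2 fold changes of -0.01 in the CT83 line, -0.04 in the HORMAD1 line and -0.05 in the double line. The 20 regulators of p53 had medians of 0.13, 0.09 and 0, where those over all tested genes were 0.01, 0.01 and 0. Their summed CPM was 984 to 1060 in control, 1071 to 1174 in the CT83 line, 953 to 1228 in the HORMAD1 line and 978 to 1057 in the double line. How far these medians rest on the 3 libraries with the steepest length trend was not tested. The 24 cell cycle genes repressed through p21 and the DREAM complex had medians of -0.03, 0.03 and -0.04. At an unadjusted p under 0.05, 0, 1 and 2 further targets stood against control in the CT83, HORMAD1 and double lines, as did 0, 1 and 2 regulators and 0, 0 and 1 cell cycle genes, where the shares of all tested genes were 2.74%, 1.82% and 5.56%. For lines with CT83 against lines without, it was 5 of 41 further targets (12.2%), 2 of 20 regulators (10%) and 1 of 24 cell cycle genes (4.17%), beside 6.21% of all genes. Among further targets, S100A2, a calcium-binding protein gene of basal epithelium, had the smallest p in the double line, at 0.36 ± 0.15 (SE) against control (adjusted p = 0.864) and 0.55 ± 0.15 against the HORMAD1 line (adjusted p = 0.275). HORMAD1 replicate 1 was the lowest of its line at 1034 CPM of S100A2. Double replicate 3, at 1650.5 CPM, lay below control replicate 3, at 1679 CPM. How far the S100A2 values rest on single libraries was not tested. APAF1, the apoptosome scaffold, had the smallest p for lines with CT83 against lines without, at -0.31 ± 0.09 (adjusted p = 0.411). Among cell cycle genes, MYBL2, the B-MYB transcription factor, was at -0.31 ± 0.09 in the double line against control (adjusted p = 0.712) and at -0.23 ± 0.06 for lines with CT83 against lines without (adjusted p = 0.353), by edgeR throughout.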

How the data were processed

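Per the labels' protocols, RNeasy kits gave the RNA, which was spiked with an ERCC mix and turned into NEBNext Ultra libraries. Trimmomatic 0.39, STAR 2.7.5c, Picard and SAMtools are named in the submitters' processing notes, with the builds hg38 and hg19; for counting tool, annotation and strand, no entry is given in the sources used here. The authors deposited expected counts per gene, 1 table per library, which were rounded to whole numbers (6.75% of values changed, by at most 0.5). The design had assumed raw counts, and the test was kept. The tables held 0 ERCC entries. Gene symbols matched 61369 entries, and exon lengths and positions came from GENCODE 29 (GRCh38, 58356 entries).

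The test was edgeR 4.0.16 in R 4.3.3: filterByExpr (minimum count 10), TMM scaling, and a robust quasi-likelihood model over all 12 libraries with a mean for every line, leaving 8 residual degrees of freedom. A call means a Benjamini-Hochberg adjusted p under 0.05 over the 15616 tested genes. Log2 fold changes of the double line against control had a median SE of 0.15. CPM are TMM-normalised, log2 CPM used a prior count of 2, and 95% intervals come from the model. Floors of 3 counts cover counting error only. Replicates differed by more than sampling noise. DESeq2 1.42.0, limma-voom of limma 3.58.1, other scalings, filters, thresholds and samples were tried.

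The members and lists were chosen with earlier results of these data known, and so were the 3 libraries left out together. Values in every library are given for CDKN1A, for the members with the 3 smallest p for any difference, and for up to 3 members with the smallest p per comparison, with SFN added after its values were seen. Genes of other lists are named only where they had the smallest p of their list.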

Additional observations from a re-analysis of the deposited data

How the results depend on the processing

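Counts of called members and medians over members moved in 20 cases and held in 356. Values of single members kept direction and side of the threshold in 672 cases, passed the threshold in 14 and changed sign in 6. With no low-count filter and with DESeq2, 1 member (PLK2) was called in the double against the HORMAD1 line, with CT83 against without, and for any difference. Leaving out single libraries gave 0 to 1 members called in these 3 comparisons, the 1 being PLK2 without CT83 replicate 3 (not for any difference) or without HORMAD1 replicate 1. Without the 3 libraries with the steepest length trend, 2 members were called in the CT83 line against control (0.76% of all genes called), 2 in the double against the CT83 line (0.466%), 1 against the HORMAD1 line (2.16%), 3 with CT83 against without (4.86%) and 2 for any difference (3.82%). The median over members in the CT83 line against control was 0.1 without those 3 libraries and -0.05 to 0.05 over the single libraries left out, and the interaction's was -0.08 to 0.05. CDKN1A in the HORMAD1 line against control, -0.01, was 0 with library size alone, 0.03 without the 3 libraries and -0.07 to 0.08 over single libraries left out. PLK2 in the double against the CT83 line, -0.04, was 0.07 without the 3 libraries and -0.11 to 0.06 over single libraries. The causes were not tested.

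Whether equal replicate numbers pair the libraries was not settled. Of 18 same-number pairs, 6 had a correlation of deviations over 0.1 (-0.35 to 0.35), and 6 of 12 libraries were closest to one of their own number. The deviations also carry the length trend, so a shared batch could go unseen. With the number as a replicate block, 0 members were called in each comparison, and PLK2 for lines with CT83 against lines without was at -0.34 (edgeR adjusted p = 0.128). EDA2R and TP53INP1, the members with the lowest levels per kilobase, also had the highest biological coefficients of variation, 25.4% and 30.7%; how much of their spread comes from depth was not tested.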
